A study of Mus musculus with 8 samples.

Results

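The liver of Pemt wild-type mice (Pemt+/+) fed high fat-high sucrose (HFHS) chow was followed at 1, 2, 3 and 4 weeks of feeding. The samples were chosen by their labels, as the arrays whose genotype was Pemt WT, and they were 4 of the 8 arrays of the series. Male Pemt+/+ mice were used, and the age at the start of feeding is not given in the sources used here. Total RNA of liver tissue was hybridised to Affymetrix GeneChip mouse expression arrays, with 1 array for each week. The methods give n = 4 for the Pemt+/+ mice and livers at the 4 time points, without saying outright that each array carried RNA of a single animal. All 4 arrays came from mice on HFHS chow, and no array of liver from chow-fed or unfed mice was analysed here, so each value is read against the other weeks of the same diet. Week and mouse cannot be told apart, because no week was repeated.

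A diet rich in fat and sucrose delivers both fatty acids and fructose to the liver. Hepatocytes store the fat in lipid droplets, build new fatty acids from sugar under the control of the transcription factors SREBP1c and ChREBP, and make cholesterol under the control of SREBP2, which is released when sterols in the endoplasmic reticulum run low. Phosphatidylcholine, made from choline or by the methyltransferase Pemt, coats these droplets and the lipoproteins that carry fat out of the liver. Kupffer cells (the resident macrophages), sinusoidal endothelial cells and stellate cells share the tissue with the hepatocytes, so that a liver array reads the RNA of all of them.

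Values are the deposited intensity of a probe set (the group of probes that reports 1 transcript), on a linear scale. The 4 arrays had been brought to a common level, with a trimmed mean of 500.0 on each, and their medians lay between 78.2 and 81.3. Pearson correlations between pairs of the 4 arrays, over all probe sets on the log2 scale, were 0.9625 to 0.9656. All 37 genes of hepatocyte identity and plasma proteins with a probe set were measured above the filter. They varied little between weeks. Their median range over the 4 weeks was 0.21 on the log2(intensity + 16) scale, beside 0.43 for all 13024 genes. Albumin, the main plasma protein (Alb), had intensities of 40661, 47725, 47748 and 45991 at weeks 1 to 4. The Y-linked genes Eif2s3y and Kdm5d were measured on every array, at 2006, 2233, 2073 and 2048 and at 379, 329.8, 383 and 374. Xist, the RNA of the inactive X chromosome, had intensities of 86.3, 94.2, 85.1 and 69.3. Pemt itself (chr11:59970614-60046561 in assembly GRCm38.p6), the methyltransferase that turns phosphatidylethanolamine into phosphatidylcholine, was measured in every week, with intensities of 5491, 4989, 5645 and 6045 and a mean of 5543 ± 437 (SD, n = 4).

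Genes of the adrenal gland and of adipose tissue were higher on the week 4 array than in the other weeks. Hsd3b1, a steroid dehydrogenase of adrenal cortex and gonad (chr3:98842356-98859794), had intensities of 13.6, 24.1, 14.7 and 6246 at weeks 1 to 4. Cyp11b1, the enzyme of the last step of glucocorticoid synthesis, had 8.72, 14.2, 10.2 and 2048. Chgb, which encodes a protein of the secretory granules of chromaffin cells, had 9.95, 3.38, 1.49 and 3362. For all 3 genes week 4 stood far above every other week, which lay at the low end of the scale. Of the 13 adrenal cortex genes with a probe set, whatever their level, 7 were at least 2-fold higher at week 4 than in every other week on the intensity + 16 scale (Akr1cl, Cyp11b1, Cyp21a1, Hsd3b1, Mc2r, Mgarp and Star), as were 6 of 15 of the chromaffin list (Chga, Chgb, Cpe, Npy, Scg2 and Th), beside 1.19% of all 18193 genes with a probe set. The summed intensity of the adrenal cortex list was 13963, 14670.2, 15637 and 30073. That of the chromaffin list was 8448, 11042, 9648 and 16855. Both lists were drawn up after these values had been seen, so the counts are a description.

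Among adipocyte genes, Adipoq, which encodes adiponectin, had intensities of 10.1, 16.8, 62.1 and 1081. Fabp4, the fatty acid carrier of adipocytes, had 1268, 1147, 794 and 8641, and Retn, which encodes resistin, had 45.7, 65.2, 12.7 and 808. Cidea, a droplet protein of brown fat, had 15.8, 10.7, 8 and 832, and Ucp1, the uncoupling protein of brown fat, had 3.4, 6.04, 6.49 and 654, although its mean was too low to pass the filter. Without a filter, week 4 was at least 2-fold above every other week in 4 of 10 adipocyte genes and in 3 of 9 brown fat genes, lists that share Ucp1. The adipocyte list summed to 76408, 78765, 73990.4 and 84185, and this sum includes Car3 and Pck1, which are abundant in liver. The brown fat list summed to 25509.8, 31770.0, 35838 and 37271. Cidea and Ucp1, at 832 and 654 at week 4, are a small part of this sum. The list also includes Elovl3, which the male-biased liver list holds too. Pancreatic acinar, skeletal muscle and kidney lists gave no such step, with sums of 2659, 3224, 3519 and 3608, of 468, 795, 651 and 569 and of 698, 782, 711 and 666. For many of the lists below, results are therefore given with that array and without it. Slopes and differences of single genes include week 4 unless stated. How far RNA of other tissues enters a value at week 4 was not tested.

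**Figure D1:**
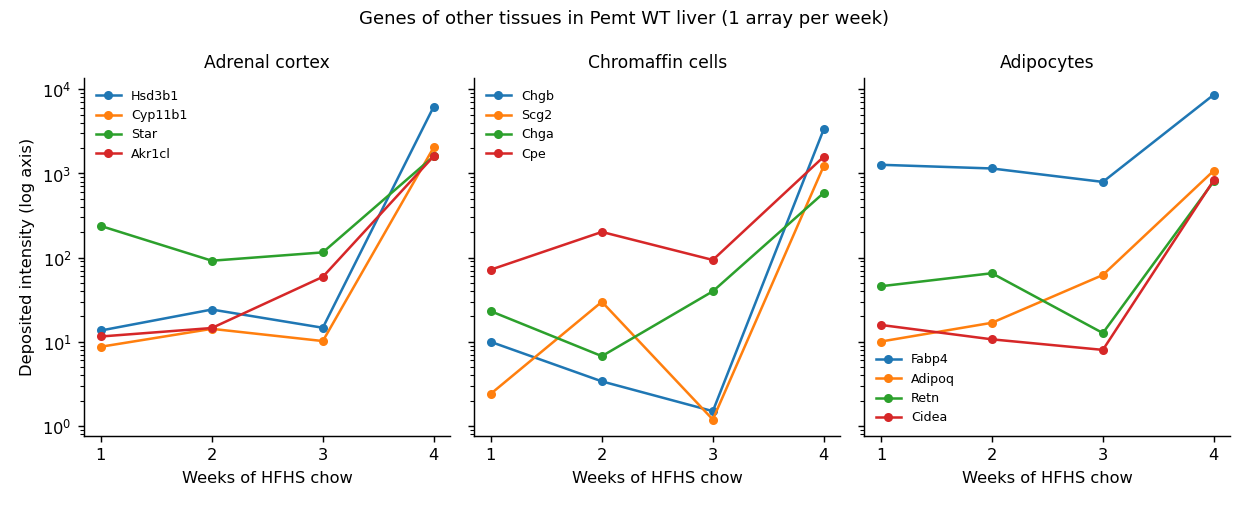
Deposited intensity (log axis) of adrenal cortex, chromaffin and adipocyte genes against the week of HFHS chow, with 1 array per week. Hsd3b1 was 14.7 at week 3 and 6246 at week 4, Chgb was 1.49 and 3362, and every gene plotted is highest at week 4.

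The change over the course was tested in 2 ways in the 4 arrays, as a slope per week and as the difference between the late weeks (3 and 4) and the early weeks (1 and 2). Of 27022 probe sets kept after a filter on low values, 0 (0%) passed limma at an adjusted p under 0.05 for the slope, and the lowest adjusted p was 0.0685. For late against early 0 (0%) passed too, with a lowest adjusted p of 0.225. At an unadjusted p under 0.05 there were 1408 probe sets for the slope, 5.21% of those tested, and 1392 for late against early, 5.15%. The slope tests split into 710 higher and 698 lower, and the late against early tests into 657 higher and 735 lower. With 1 array left out, 0, 11, 27 and 5 probe sets passed for the slope without weeks 1, 2, 3 and 4, and 2, 17, 33 and 2 for late against early, in fits with a single residual degree of freedom. An exact permutation of single values could not go below 0.0833 for an order over 4 arrays or 0.333 for 2 against 2. Since no gene passed, values, their order over the weeks and their size are given as description.

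Sizes were as follows. The ratio of week 4 to week 1 was 2 or more in 5792 of 45037 probe sets (12.9%) and 0.5 or less in 5528 (12.3%), 11320 in all. Above the 40th percentile of the mean this total was 2113, and as a ratio of intensity + 16 over all probe sets it was 5471. With low intensities left out and both late weeks on the same side of both early weeks, a mean difference of at least 2-fold was found for 220 probe sets higher late (0.814%) and 203 lower late (0.751%). At the level of genes, each read by its brightest probe set, both late weeks lay above both early weeks for 17.1% and below them for 17.4% of 13024 genes. Each week stood above the week before in 4.18% of genes and below it in 4.15%. The median late minus early difference of all genes was 0.0032 on the log2 scale. These shares are the background for every list that follows.

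**Figure D2:**
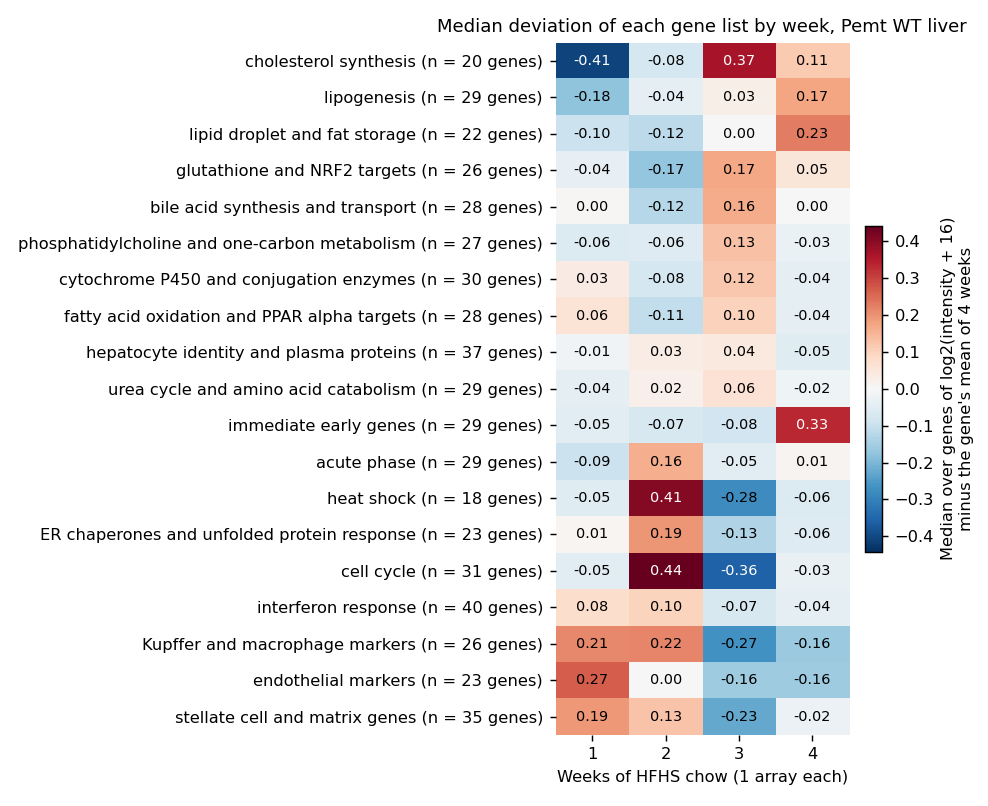
Median over the genes of each list of log2(intensity + 16) minus the gene's mean of the 4 weeks (colour and printed number), by week of HFHS chow. Cholesterol synthesis was at -0.41 at week 1 and 0.37 at week 3, heat shock and cell cycle genes were highest at week 2, and Kupffer cell genes lay at -0.27 at week 3.

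Genes of cholesterol synthesis were higher late than early almost throughout the pathway. Of 20 genes measured, 17 had both late weeks above both early weeks and 0 had them below, beside 17.1% and 17.4% of all genes. The median late minus early difference of the list was 0.51 on the log2 scale. Altogether 17 of the 20 genes were lowest at week 1 (24.9% of all genes) and 16 were highest at week 3 (23.8%). None passed limma after adjustment, and 14 had an unadjusted p under 0.05, all higher late, beside 5.15% of probe sets in either direction.

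The order of the pathway starts at Hmgcs1, the cytosolic HMG-CoA synthase (chr13:119690351-119708260), whose intensities were 18258, 20735, 37782 and 29196 at weeks 1 to 4. The late weeks stood above the early weeks without overlap, in each of its 5 probe sets. The difference came to 0.77 ± 0.13 (log2, ± SE, n = 4), or 1.71-fold (limma, adjusted p = 0.794). Idi1, the isopentenyl diphosphate isomerase, had 6576, 9391, 14621 and 10194. Fdps, which joins isoprene units to farnesyl diphosphate, had 6356, 10600.4, 12996 and 11441. Both were lowest at week 1 and highest at week 3, with the late weeks above the early ones. Fdft1, the squalene synthase, had 6409, 6382, 12570.1 and 8262, so that weeks 1 and 2 were level and week 3 stood out. Sqle, the squalene epoxidase, had 2101, 3402, 4442 and 4566 and was higher in each week than in the week before.

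Downstream of squalene the same order held. Msmo1, a sterol methyl oxidase, had intensities of 3457, 5025, 8849 and 6442 and a late minus early difference of 0.85 ± 0.21. Hsd17b7, a ketosteroid reductase of the pathway, had 2201, 2859.6, 4369 and 3885 and a difference of 0.71 ± 0.15. Neither gene had a late week below an early week. Dhcr7, the enzyme of the last step, had 1906, 2228, 3741 and 2639.6, and Lss, the lanosterol synthase, had 1209.6, 1774, 2567 and 1933. Insig1, the protein that holds SREBP in the endoplasmic reticulum when sterols are plentiful, had 9391, 12389, 13687 and 14922 and stood higher in each week than in the week before. The 3 genes whose late and early weeks overlapped were Srebf2, which encodes SREBP2 itself, at 369, 558, 401 and 371, Mvk, the mevalonate kinase, at 435, 427, 592 and 434, and Ebp, a sterol isomerase, at 14796, 17393, 18429 and 16622.

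Without the week 4 array the list median was 0.65, and 19 of 20 genes had week 3 above weeks 1 and 2, beside 32.3% of all genes. Without week 1, the week in which most of these genes were lowest, the median was 0.28. Leaving out week 2 or week 3 gave 0.69 and 0.38.

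SREBP proteins bind sterol response elements, and the letters TCACNCCAC were searched on both strands of the 250 bases before the RefSeq start site. They were found for 1 of 17 cholesterol synthesis genes with a promoter in the table (5.882%) and 1 of 25 lipogenesis genes (4%), beside 331 of 27025 genes (1.225%). The cholesterol gene was Hmgcs1 and the lipogenesis gene was Mlxipl, which encodes ChREBP. The Hmgcs1 window is shown because this gene had the smallest p of its list for late against early and holds the motif, which begins 137 bases before the start site on the plus strand (assembly GRCm38.p6, RefSeq, chr13:119690101-119690350, plus strand, 5′ to 3′). Capitals mark the motif, and a match of letters is not a measured site.
Hmgcs1: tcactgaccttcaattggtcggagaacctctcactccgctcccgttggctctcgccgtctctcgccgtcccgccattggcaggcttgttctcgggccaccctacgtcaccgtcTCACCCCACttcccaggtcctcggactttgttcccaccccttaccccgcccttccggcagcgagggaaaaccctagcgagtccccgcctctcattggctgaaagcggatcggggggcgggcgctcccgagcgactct

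Fatty acid and triglyceride synthesis genes were a little higher late than early, and some stood in ascending order week by week. Of 29 genes, 12 had both late weeks above both early weeks and 1 had them below, beside 17.1% and 17.4% of all genes. In 7 each week stood above the week before (Acly, Acss2, Agpat2, Fads2, Fasn, Gpam and Mid1ip1) and in 0 below it, beside 4.18% and 4.15% of all genes. The list's median difference was 0.11, and 11 genes had an unadjusted p under 0.05 for a higher slope, beside 5.21% of probe sets in either direction.

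Acss2, which makes acetyl-CoA from acetate, had intensities of 7821, 10974, 13153 and 14383. Acly, which makes it from citrate, had 13625, 16119, 18419 and 20134. Both stood higher in each week than in the week before. Fasn, the fatty acid synthase (chr11:120805958-120825166), had 7749, 10708, 12048 and 14993, a slope of 0.30 ± 0.045 log2 per week (± SE, n = 4) and an adjusted p of 0.526 in limma. Gpam, which adds the first acyl chain to glycerol phosphate, had 14957, 16443, 23014 and 24393 and a late minus early difference of 0.59 ± 0.093. Its largest step lay between weeks 2 and 3, and the late and early weeks did not overlap. Agpat2, the next enzyme of triglyceride synthesis, had 9574, 11440.1, 12371 and 13297.

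Other members did not follow this order. Srebf1, which encodes SREBP1, had intensities of 8086, 7524, 8497 and 8193, and Mlxipl had 6533, 4964, 6607 and 5129. Scd1, the main stearoyl-CoA desaturase of liver, had 48033, 50739.7, 51623 and 49945. In these probe sets the 3 genes had no order over the weeks. Another probe set of Scd1 had a slope of 0.40 log2 per week in the fit without week 3. Lpin1, the phosphatidate phosphatase, was highest at week 2, with 1321, 2281, 1094 and 1521, and Pklr, the liver pyruvate kinase, was lowest at week 3, with 2663, 2699, 1596 and 2617, while its other 2 probe sets had late minus early differences near 0. Scd2, a desaturase that adipose tissue and adrenal gland also use, had 314, 294, 395 and 1904 and stood out at week 4 alone. Without week 4 the list median was 0.11, and it was 0.22 without week 2 and 0.23 without week 3. Week 3 lay above weeks 1 and 2 in 14 genes and below them in 4, beside 32.3% and 33.7% of all genes.

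**Figure D3:**
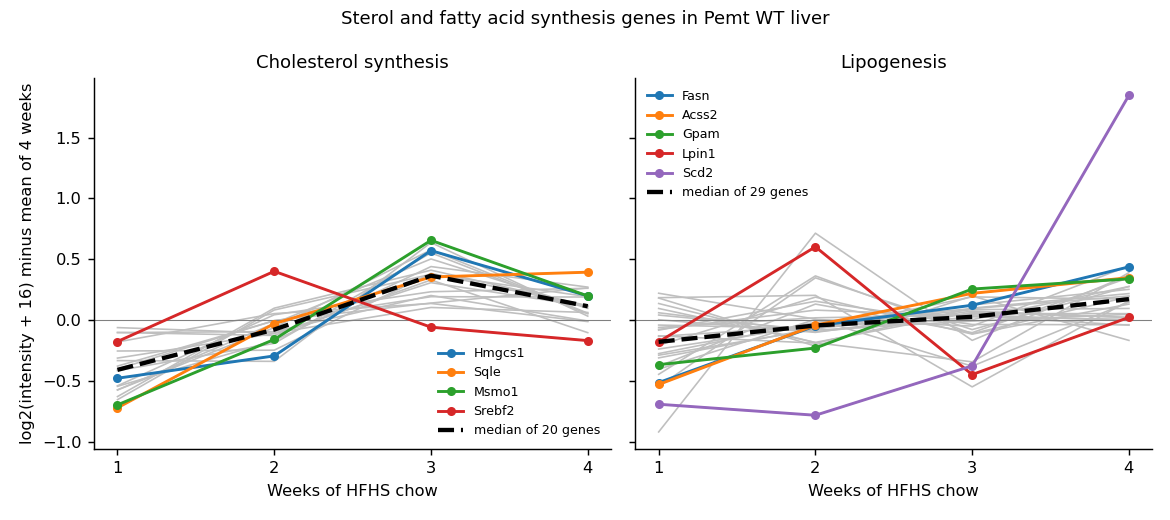
log2(intensity + 16) of each gene minus its mean of the 4 weeks, by week of HFHS chow, for cholesterol synthesis (left) and lipogenesis (right). Grey lines are single genes, coloured lines are named genes and the dashed line is the list's median, which is -0.41 at week 1 and 0.37 at week 3 on the left, and -0.18 at week 1 and 0.17 at week 4 on the right.

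Lipid droplet genes had a median late minus early difference of 0.15, and 12 of 22 were highest at week 4, beside 24.9% of all genes. G0s2, an inhibitor of the triglyceride lipase ATGL, had intensities of 3484, 8777, 13797 and 11705 and was 2.29-fold higher late (limma, adjusted p = 0.935). Pparg, a regulator of fat storage, had 39.6, 11, 89.5 and 138, and Plin2, the main droplet coat protein of hepatocytes, had 22638, 21870.1, 27231 and 25071. In all 3 genes both late weeks lay above both early weeks. Cidec, a droplet fusion protein of fat cells that fatty liver also makes, had 34.4, 47.8, 58.5 and 156. Cd36, a fatty acid transporter, had 655, 621, 827 and 906. Adipocyte genes were higher at week 4 on the same array, so the part of Cidea, Cidec and Fabp4 that comes from hepatocytes was not tested. Without week 4 the median was 0.13, and it was 0.27 without week 1 and 0.27 without week 3.

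Genes of fatty acid oxidation that answer to PPAR alpha had a median difference of 0.071, or 0.15 without week 4. A few members stood apart from the list. Fgf21, a hormone of the liver that PPAR alpha, ChREBP and ATF4 can each induce (chr7:45613890-45615490), had intensities of 155, 155, 491 and 634. Weeks 1 and 2 were level, weeks 3 and 4 lay far above them, and the difference was 1.75 ± 0.21, or 3.36-fold (limma, adjusted p = 0.225). Pdk4, the kinase that shuts off pyruvate dehydrogenase (chr6:5483351-5496278), had 539, 413, 1189.5 and 1454, with a difference of 1.45 ± 0.19, or 2.73-fold (limma, adjusted p = 0.246). Here too, the early and late weeks did not overlap. Fgf21 and Pdk4 were 2 of the 6 genes of smallest p for late against early, and neither passed. Of the 28 genes of the PPAR alpha list, 3 had both late weeks above the early weeks and 2 had them below, beside 17.1% and 17.4% of all genes. Cpt1a, the gate of mitochondrial fatty acid import, had 5892, 6281, 6093 and 6955, within a narrow range. Cyp4a14, a fatty acid hydroxylase and strong PPAR alpha target, had 10109.7, 1652, 7510.4 and 1671, so that weeks 1 and 3 were high and weeks 2 and 4 low.

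Among hormones and secreted regulators the median difference was -0.0028. Angptl8, an insulin-responsive inhibitor of lipoprotein lipase, had intensities of 1381, 3284, 4293 and 5387, each week above the week before, with a slope of 0.62 ± 0.093 per week (limma, adjusted p = 0.526). Angptl4, which inhibits the same lipase, lay lower late, with 2983, 4009, 2315 and 2389. Enho, which encodes adropin, had 1657, 1869, 1172 and 925, with the late weeks below the early weeks and a difference of -0.75 ± 0.16. Mfsd2a, a lysophosphatidylcholine transporter (chr4:122946850-122961194), had 761, 2179, 2471 and 4886, in ascending order, with a slope of 0.82 ± 0.10 per week (limma, adjusted p = 0.355). Hamp, the iron hormone hepcidin, was lowest at week 2, with 25168, 18726, 20267 and 26900.3. Igf1 had 17267, 19129, 17703 and 17044, and its weeks lay close together.

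Bile acid genes were highest at week 3 in 18 of 28 cases, beside 23.8% of all genes. Week 3 lay above weeks 1 and 2 in 21 genes and below them in 1, beside 32.3% and 33.7% of all genes. In 9 genes both late weeks lay above both early weeks and in 0 below, beside 17.1% and 17.4%. Cyp7a1, the rate-limiting enzyme of bile acid synthesis (chr4:6265612-6275632), had intensities of 315, 593, 1147 and 1062, a late minus early difference of 1.32 ± 0.27 and the same sign in both probe sets. Week 1 was the lowest, and both late weeks exceeded both early weeks. Nr0b2, the repressor SHP that bile acids induce through FXR, had 3374, 2753, 4993 and 4164, higher late as well. Cyp7b1, of the alternative pathway, had 8682, 30423, 25383 and 26847, where week 1 alone was low. Cyp8b1, the sterol 12-hydroxylase that sets the make-up of the bile acid pool, had 6711, 7625, 9967 and 3527 and was lowest at week 4. Abcg5 and Abcg8, whose products together export sterols into bile, had 2533, 1687, 2692 and 2619 and 1082, 789.7, 1090.0 and 1127, both lowest at week 2. The list's median was 0.093 with all arrays, 0.20 without week 4, 0.17 without week 1, 0.044 without week 2 and 0.02 without week 3.

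Phosphatidylcholine and one-carbon genes had a median difference of 0.12. Of 27 genes, 10 were higher in both late weeks and 0 lower, beside 17.1% and 17.4% of all genes. Chpt1, the last enzyme of the choline pathway to phosphatidylcholine, had intensities of 4833, 6215, 7367 and 6431. Lpcat3, which puts polyunsaturated chains into phosphatidylcholine, had 3534, 3296, 4289 and 4188. In both genes the 2 late weeks were above the early weeks. Bhmt, which remethylates homocysteine with betaine from choline, had 42792, 57208, 60038 and 51967, with week 1 lowest. Gnmt, the methyltransferase that uses up S-adenosylmethionine, had 31514, 32183, 36275 and 33199.6. Without week 3 the median was 0.021, and without week 4 it was 0.22.

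Of the VLDL list, 4 of 22 genes lay higher late and 2 lower, beside 17.1% and 17.4% of all genes. The list's median was 0.041, and 0.085 without week 4. Apob, the backbone of VLDL, had intensities of 48227, 50289.8, 51471 and 47915, and Mttp, the transfer protein that loads it with fat, had 6016, 7298, 6591 and 6798. Both kept a narrow range. Apoa4, an apolipoprotein of fat-loaded liver, had 11851, 25513, 23269 and 22509, where week 1 stood below the 3 later weeks. The hepatocyte, urea cycle and glucose lists had medians of 0.0055, 0.036 and 0.032. Cps1, the first enzyme of the urea cycle, had 42434, 45549, 48233 and 43397, and Khk, the ketohexokinase that phosphorylates fructose, had 19941, 21986, 19326 and 20701. Igfbp1, which insulin holds down, was highest at week 1, with 13653, 4716, 8349.6 and 5378.

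Glutathione S-transferases were among the genes with the smallest p-values for late against early. Gstt2 (chr10:75831842-75837419), a theta class transferase, had intensities of 864, 741, 2104 and 2222. Gsta2 (chr9:78331018-78347192), of the alpha class, had 820.2, 653, 1863 and 1818. In both, weeks 3 and 4 were nearly equal to each other and more than 2-fold above weeks 1 and 2, without overlap. The differences were 1.42 ± 0.14 (2.67-fold) and 1.31 ± 0.15 (2.48-fold), and the adjusted p in limma was 0.225 for each. Gstt1 and Gstt3 lie beside Gstt2 on chromosome 10, at chr10:75783813-75798584 and chr10:75774117-75781422. Their intensities were 9799.7, 8815, 13033 and 13208 and 488, 466, 742 and 882, higher late in both cases. Gstm3, of the mu class, had 1219, 909.6, 2161 and 1591. The list of glutathione and NRF2 target genes had 11 of 26 members higher in both late weeks, and 2 lower, Gss (glutathione synthetase) and Hmox1 (heme oxygenase). Over all genes these shares were 17.1% and 17.4%.

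Other members of the list included targets of NRF2. Nqo1, a quinone reductase, had intensities of 189, 174, 261 and 171. Gclc, the catalytic subunit of the first step of glutathione synthesis, had 12986, 7405, 11495 and 8830.2, and Hmox1 had 353, 455, 261 and 297. In Nqo1 and Gclc the early and late weeks overlapped. The median of the list was 0.18 and 0.26 without week 4. Leaving out week 2 gave 0.079. Gstm1, of the mu class, at 12109, 9057, 13235 and 11964, and Aox1, an aldehyde oxidase, at 2169.8, 1551, 2746 and 2269.5, were lowest in that week.

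Cytochrome P450 and conjugation genes had 8 of 30 members higher late and 2 lower, beside 17.1% and 17.4% of all genes. The list's median difference was 0.065, and it was 0.14 without week 4 and -0.014 without week 3. Sult1a1, a phenol sulfotransferase, had intensities of 11167, 12782, 19799 and 14389, and Cyp3a25 had 21718, 17599, 26984 and 25192. Cyp2b9, a P450 that female livers express more (chr7:26173350-26210661), was high at week 1 alone, with 704, 83.5, 59.6 and 70.8. Abcd2, a peroxisomal transporter of the same female-biased list, had 206, 48, 45.1 and 58.6. Among male-biased genes Cyp4a12a had 3157, 10918, 8756 and 9793, C6 had 2836, 7223, 6221 and 7708 and Cyp7b1 8682, 30423, 25383 and 26847, each lowest in that week. Hsd3b5, another male-biased gene, had 16978, 16638, 17150.2 and 16738 and did not share that order. Of 20 male-biased genes 13 were lowest at week 1, beside 24.9% of all genes. Of 19 female-biased genes 6 were highest there, beside 25.5%, a share near the background.

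Markers of Kupffer cells and macrophages were lower late than early. Both late weeks lay below both early weeks in 21 of 26 genes and above them in 1 (Cx3cr1), beside 17.4% and 17.1% of all genes. The median late minus early difference was -0.45 on the log2 scale. In bulk liver, fewer Kupffer cells and less of these RNAs per cell cannot be told apart. Unadjusted p was under 0.05 in 13 of them, all lower late, and none passed after adjustment.

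Clec4f, a lectin found on Kupffer cells of rodents (chr6:83644542-83656116), had intensities of 2363, 2267, 1332 and 1505. The difference was -0.70 ± 0.13, which is 1.63-fold lower late (limma, adjusted p = 0.799). Vsig4, a complement receptor of Kupffer cells, had 1796, 1933, 1179 and 1323, and Cd5l, a secreted macrophage protein, had 3934, 3640.2, 2637 and 2798. Each of these had a clear gap between the early and late weeks. Csf1r, the receptor for the growth factor that keeps macrophages alive, had 6626, 6607, 4729.7 and 4970.4, and C1qa, a subunit of complement C1q, had 2008, 2018, 1295 and 1426. Tyrobp, a signalling adaptor of myeloid cells, had 1233, 1229, 691 and 877. Adgre1, which encodes F4/80, had 782, 722, 616 and 628, with a smaller gap.

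A few macrophage genes did not share the order. Mpeg1 had intensities of 1846, 2399, 1989.6 and 2149, Cd163, the hemoglobin scavenger receptor, had 483, 441, 487 and 468, and Slc40a1, the iron exporter ferroportin, had 6765, 5815, 5616 and 6379.5. Ccr2, the receptor of recruited monocytes, was dim, at 23.5, 89, 75.1 and 103. Among the lipid-associated macrophage genes 1 of 12 was higher late and 1 lower, beside 17.1% and 17.4% of all genes. Trem2 and Mmp12, which mark such cells, were under the filter with intensities of 9.06, 84.7, 58.3 and 58.8 and 6.69, 5.16, 3.85 and 1.74. Leaving out week 4 gave a median of -0.49 for the Kupffer list, with week 3 below weeks 1 and 2 in 22 genes, beside 33.7% of all genes. Leaving out weeks 1, 2 and 3 gave -0.44, -0.44 and -0.38.

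Endothelial markers, which include sinusoidal and general vessel genes, were highest at week 1 in 16 of 23 cases, beside 25.5% of all genes. Both late weeks were below both early weeks in 11 and above them in 0, beside 17.4% and 17.1%. In 6 genes each week stood below the week before (Egfl7, Fcgr2b, Gpr182, Mmrn2, Oit3 and Stab1), beside 4.15%. Oit3 had intensities of 738, 549.5, 401 and 341. Lyve1, a hyaluronan receptor, had 519, 581, 368 and 274, and Stab2, a scavenger receptor of sinusoidal endothelium, had 1262, 939, 726 and 765. Oit3 and Lyve1 had differences of -0.76 ± 0.20 and -0.76 ± 0.20. Kdr, the VEGF receptor, had 1094, 689.6, 792 and 730.5, so that week 1 alone was high, and Plvap had 926, 949, 1001 and 849, with no order. The list's median was -0.27 with all arrays. It moved to -0.10 once the week 1 array, the highest for most of these genes, was dropped. Dropping the week 4 array instead left it at -0.33, and dropping the week 2 array at -0.46.

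Several fibrillar collagen genes were lower late. Col3a1 (chr1:45311538-45349706) had intensities of 5044, 6553, 1849 and 2388, and the late weeks were under every early week in both of its probe sets. The difference was -1.44 ± 0.17, or 2.72-fold lower (limma, adjusted p = 0.225), among the smallest p of all genes. Col5a2, its neighbour on chromosome 1 (chr1:45374331-45503282), had 256, 361, 84.2 and 123, and Col1a2 had 1771, 2217, 693 and 1003. Col1a1 had 215, 276, 102 and 137. These 4 were highest at week 2 and lowest at week 3, and a second, dimmer probe set of Col5a2 had overlapping early and late weeks. Col5a1, the other fibrillar collagen of the list, had 284, 332, 213 and 291, with week 4 above week 1. Acta2, an actin of vessel walls and activated stellate cells, had 756, 1158, 456 and 639, and Tagln, another contractile gene, had 193, 344, 71.7 and 154, in the same order.

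Matrix and stellate cell genes did not all share that order. Of 35 genes, 14 lay lower in both late weeks and 6 higher (Dcn, Ecm1, Lox, Pdgfra, Thbs1 and Timp1), beside 17.4% and 17.1% of all genes. The 6 higher genes are a share near that background. Timp1, an inhibitor of matrix proteases, was dim and in ascending order, with 24.7, 38.8, 91.5 and 114. Lrat, which makes retinyl esters in stellate cells, ranged from 382 at week 2 to 541 at week 4, and Reln, another stellate cell gene, had 2673, 2423, 2721 and 2668. In both, the early and late weeks overlapped. Dcn, which encodes decorin, had 6070.3, 6274, 7166 and 6786. Sparc, a matrix protein that fat cells also make, had 3130.2, 2993, 1449.9 and 2429.6, with week 4 between the early weeks and week 3. The list's median was -0.28, -0.36 without week 4 and -0.20 without week 3.

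**Figure D4:**
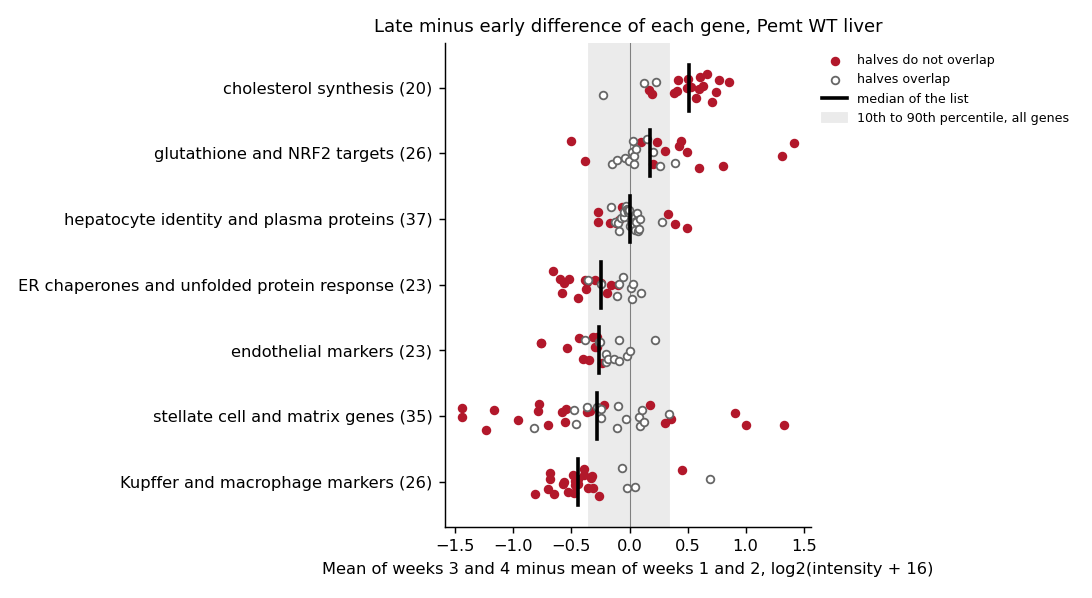
Mean of weeks 3 and 4 minus mean of weeks 1 and 2, as log2(intensity + 16), for each gene of 7 lists in Pemt WT liver. Filled points are genes whose late and early weeks do not overlap, bars are list medians (0.51 for cholesterol synthesis, -0.45 for Kupffer and macrophage markers), and the grey band spans the 10th to the 90th percentile of all genes, from -0.35 to 0.34.

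Endoplasmic reticulum chaperones lay lower late as well. Of 23 genes 14 had both late weeks below both early weeks and 0 above, beside 17.4% and 17.1% of all genes. Altogether 18 were highest at week 2, beside 25.9% of all genes. The median difference was -0.25. Manf, a chaperone-bound secreted protein, had intensities of 9892, 12896, 6138 and 9011. Herpud1, of the degradation machinery of the endoplasmic reticulum, had 10493, 13490.4, 6891 and 9404, and Creld2 had 3037, 4760.0, 2066 and 2785. In these 3 genes week 2 was the highest and week 3 the lowest. Pdia6, a disulfide isomerase, had 9636, 11465, 8038 and 7422. Hspa5, the chaperone BiP, had 29058, 32317, 26546 and 28468, a smaller spread, and the sensors Atf6 and Ern1 had 1294, 1315, 1168 and 1506 and 3348, 3083, 3329 and 3248, whose weeks overlapped. Week 3 was below weeks 1 and 2 in 18 genes, beside 33.7% of all genes, and the median without week 4 was -0.21. Without week 2 it was -0.17.

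The list of interferon response genes had 17 of 40 members lower late and 2 higher (Gbp2 and Irf8, whose other probe set lay lower late). Its median was -0.16, and -0.20 without week 4. Of all genes, 17.4% were lower in both late weeks and 17.1% higher. Bst2, tetherin, had intensities of 8221, 8048, 5465 and 6344, and Oas1a, an antiviral nucleotide synthetase, had 733, 609, 357 and 544. Both had a gap between early and late weeks. Ifit1, an inhibitor of viral RNA translation, had 521, 375, 384 and 427, and its weeks overlapped. MHC class II genes, by contrast, had a median of 0.00076, with H2-Aa at 2638, 3069, 2937 and 3178. Neutrophil markers were dim: S100a8 had 173, 101, 41.5 and 55.5 and S100a9 162, 95.9, 27 and 60.5, both lower late, and 8 of 13 genes passed the filter. Their median was -0.53, and -1.01 without week 4 and -0.92 without week 1.

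Besides the endoplasmic reticulum chaperones, acute phase, heat shock and cell cycle genes were often highest at week 2. Among acute phase genes, 18 of 29 were highest at week 2, beside 25.9% of all genes, and 3 were at least 2-fold above every other week (Lcn2, Orm2 and Saa2), beside 0.161%. Saa1 and Saa2 encode serum amyloid A and lie next to each other on chromosome 7 (chr7:46740497-46743181 and chr7:46751833-46754313). Saa1 had intensities of 12791, 49407, 31000.1 and 33269. Saa2 had 1803, 32453, 6754 and 9072, a range of 17.9-fold on the intensity + 16 scale. For both, week 1 was lowest and week 2 highest. Lcn2, the siderophore-binding lipocalin, had 421, 2644, 646 and 899, and Orm2, an orosomucoid, had 772, 2945, 898 and 1205. Cxcl1, a chemokine for neutrophils (chr5:90891245-90893121), had 906, 8798, 507 and 429.6, with week 2 far above the others in all 3 probe sets.

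Other acute phase genes varied less between weeks. Crp, the C-reactive protein, had intensities of 21176, 23397, 25389.6 and 22464, Hp, haptoglobin, had 34452, 40484, 36459.9 and 36005, and Itih4 had 36340.0, 36698, 35698 and 35142. Fga, the fibrinogen alpha chain, stood in ascending order with 37018, 40097, 46728 and 50346, while Fgb and Fgg had 54588, 57746, 53589 and 53554 and 42921, 45872, 45713 and 45366. Socs3, which limits the cytokine signal behind the acute phase, had 1206, 1382, 494 and 977. The probe sets of Saa1 and Saa2 match near-identical transcripts, so their signals may be shared. Of the 13 neutrophil markers with a probe set, 6 were highest at week 2, beside 25.7% of all genes without a filter. Their summed intensity was 1519, 3605, 1121 and 1639.8, of which Lcn2, which hepatocytes also make, was the largest part at week 2, and S100a8 and S100a9 were highest at week 1.

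All 18 heat shock genes measured were highest at week 2, beside 25.9% of all genes, and 13 were lowest at week 3, beside 25.7%. Hspa1b (chr17:34956429-34959238), an inducible HSP70 gene, had intensities of 7227, 18707, 2262 and 5093. Hspa1a, its near-identical neighbour (chr17:34969359-34972156), had 271, 982, 52.2 and 459. Their probe sets can share signal, and in both week 2 was at least 2-fold above every other week. Hsph1, an HSP110 chaperone, had 3136, 5533, 1817 and 2514, and Dnajb1, an HSP40, had 1299, 2665, 1007 and 1433. Hsp90aa1, the inducible HSP90, had 16824, 24526, 16218 and 16906. Mitochondrial Hspd1, at 16894, 19775, 16917 and 16835, was also highest at week 2, with a smaller step. The median of the list by week, relative to each gene's mean, was -0.054, 0.41, -0.28 and -0.061. Late minus early, the median came to -0.32. With week 1 left out this was -0.58, with week 2 left out -0.12 and with week 4 left out -0.43.

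Cell cycle genes shared that order at low intensities. Of 41 genes with a probe set, 34 were highest at week 2, beside 25.7% of all genes without a filter. Of the 31 that passed the filter, 28 were highest at week 2 and 20 lowest at week 3, beside 25.9% and 25.7% of all genes. Mcm5 and Mcm6, subunits of the replicative helicase, had intensities of 184, 522, 101 and 154 and 249.8, 602, 172 and 358. Cdc20, an activator of the anaphase-promoting complex, had 162, 433, 150.3 and 188. Mki67, the proliferation marker Ki-67, had 75.6, 146, 5.75 and 77.7, and Birc5, survivin, had 66.7, 149, 6.55 and 69. Both were dim, and at week 3 close to the floor of the scale. Rrm2, a ribonucleotide reductase subunit, had 373, 845, 408 and 598. Pcna, the replication clamp, had 1973, 2223, 1871 and 1959, again highest at week 2. Ccnd1, cyclin D1, was different, with 1106, 1448, 682 and 2157, where week 4 was highest. Week 3 lay below weeks 1 and 2 in 23 genes, beside 33.7%. The list's median of -0.42 became -0.12 without week 2, -0.24 without week 3, -0.70 without week 1 and -0.62 without week 4.

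**Figure D5:**
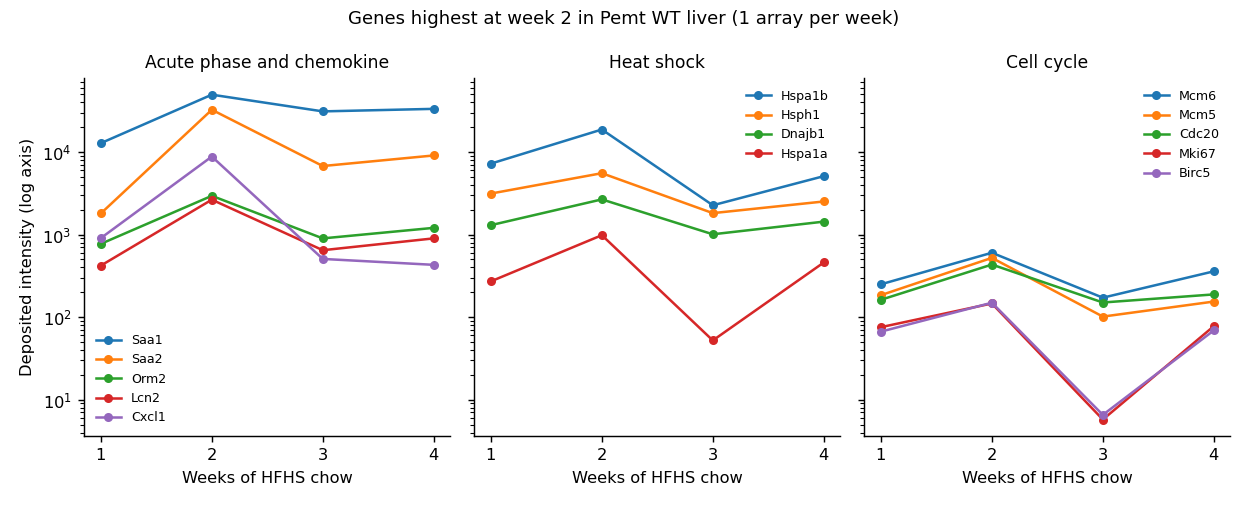
Deposited intensity (log axis) of acute phase and chemokine, heat shock and cell cycle genes against the week of HFHS chow, 1 array per week. Every gene plotted is highest at week 2, such as Saa2 at 32453 and Hspa1b at 18707, and all heat shock and cell cycle genes plotted are lowest at week 3.

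Immediate early genes were highest at week 4 in 15 of 29 cases, beside 24.9% of all genes. Dusp1, a phosphatase that ends MAP kinase signals (chr17:26505591-26508472), had intensities of 1785, 2431, 4079 and 7895. Each week stood above the week before, and the slope was 0.71 ± 0.063 log2 per week with an adjusted p of 0.0685 (limma), the lowest for the slope together with Phlda1. Jun, an AP-1 subunit, had 360.1, 995, 1187 and 1739, Zfp36, which destabilises cytokine mRNAs, had 1047, 1690.2, 2077 and 2469, and Ccn1, a matrix-bound signalling protein, had 231, 335, 405 and 809.8, all in ascending order. The other probe sets of Ccn1 did not share that order, with 192, 239, 212 and 413, with 34.2, 18.8, 241 and 126 and with 33.6, 94.3, 197 and 66.9. Nr4a1, an orphan nuclear receptor that adrenal cells also induce, had 153, 156, 152 and 1580.5, and Fos had 214, 563, 418 and 1111. Nr4a1 stood out at week 4 alone, on the array with the adrenal genes. Junb and Klf2 had 229, 282, 164 and 238 and 229, 256, 182 and 216, without such an order. Over the list the late minus early median was 0.25. It came to 0.041 when week 4 was left out, to 0.15 when week 2 was and to 0.39 when week 3 was.

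Clock genes had a median difference of -0.012. Arntl, which encodes BMAL1, had intensities of 1054, 974, 982 and 1032, and Dbp, an output gene of the clock, had 227, 313, 328 and 241. Per1 was lowest at week 3, with 204, 326, 23.8 and 215, and Per2 highest at week 2, with 267, 716, 379 and 346. The hour at which the livers were taken is not given in the sources used here.

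Phlda1, a stress-responsive gene (chr10:111506286-111508649), had the other lowest adjusted p for the slope. Its intensities were 12830.4, 8336, 5797 and 4251, lower in each week than in the week before, with a slope of -0.53 ± 0.045 per week (limma, adjusted p = 0.0685). Foxq1, a forkhead factor, had 1247, 444, 272 and 231, and Tcf24 had 951, 159, 62.4 and 45.8. Nrep had 3053, 2614, 1399 and 1185. These 3 genes shared that order. Tbx3, a T-box factor of hepatocytes around the central vein, stood in ascending order, with 733, 922, 1612 and 2019 and a slope of 0.51 ± 0.067 (adjusted p = 0.369 in limma).

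The array of each week had single genes far from the other 3. Ces2b, a carboxylesterase, had intensities of 655, 3587, 289 and 601 and stood out at week 2. Slc30a3, a zinc transporter, had 38.3, 44.8, 231 and 38.5 and Fmr1nb had 37.4, 109, 779.7 and 100.2, both highest at week 3. Hao2, an oxidase of hydroxy acids in the female-biased list, had 129.9, 8.38, 13.6 and 1443, highest at week 4, and Scara5, a ferritin receptor, had 103, 1397, 404 and 1298, lowest at week 1. These are single readings of 1 array each. Rad51b, a recombination gene, was highest at week 1, with 368, 11, 46.2 and 82.8. C2cd4b had 363, 198, 149.8 and 28.6 and Spink4, a secreted peptide of the gut, had 72, 115, 83.5 and 2.93, both lowest at week 4. Moxd1, a monooxygenase of the male-biased list, had 2.98, 37.4, 61.2 and 1053, so that week 4 stood far above the rest. Abcb1b, a multidrug transporter that adrenal cortex also makes, had 24.5, 58, 29.8 and 2267, again with week 4 alone high. A second, dim probe set of Abcb1b had 47.1, 62.4, 48.7 and 33.7, lowest at week 4.

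Among other genes of small p for late against early, Adam15, a membrane protease, had intensities of 171, 202, 52.7 and 47.5, and Ugt2b37, a glucuronosyltransferase, had 863, 973, 205 and 397. Both were lower in the late weeks without overlap in these probe sets, although the other 2 probe sets of Adam15 had late minus early differences of 0.37 and 0.080. The differences were -1.61 ± 0.29 and -1.63 ± 0.28, with adjusted p-values of 0.799 and 0.794 (limma). Cyp2c68, a P450, was among those of small p for the slope, with 29396, 20254, 18913 and 15597 in descending order. ATF4 targets had 7 of 21 genes higher late and 4 lower, beside 17.1% and 17.4% of all genes. Their median was -0.13, and -0.22 without week 4. Psat1, of serine synthesis, had 61.8, 67.5, 84 and 141, and Chac1, which degrades glutathione, had 553, 265, 209 and 223. Metallothionein, zinc and iron genes had a median of 0.064, and Mt2 had 178, 211, 211 and 265. Lymphocyte, cholangiocyte and red blood cell lists had medians of -0.18, 0.037 and 0.017, over 11, 12 and 7 genes.

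The genes that the study followed had no shared order, with a median difference of -0.10 over 14. Fbxo31, an F-box protein that targets cyclin D1, had intensities of 328, 474, 495 and 386. Hnf4a, a nuclear receptor of hepatocyte identity, had 12698, 13836, 13017 and 11298, and Cltc, the clathrin heavy chain, had 7782, 7743, 7648 and 8796. Cdkn1a, the cell cycle inhibitor p21, was highest at week 2, with 554, 1116, 551 and 700.1. Krt19, of bile duct cells, had 80.9, 175, 78.8 and 62.2, and Afp, the fetal liver protein, had 65.3, 116, 93.7 and 72.6. Tgfb1, which encodes the fibrogenic cytokine, had 72.2, 67, 43.7 and 38.5, dim and lower late. Atf4, which encodes ATF4, had 3200.6, 3460.2, 3643.7 and 4726.5, each week above the week before. Its other probe set had 1638.4, 2124.5, 2101.2 and 2897.4. Of the 18 p53 targets kept, 5 lay lower late and 0 higher, beside 17.4% and 17.1% of all genes. Their median was -0.087, and -0.16 without week 4.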

How the data were processed

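Liver RNA of Pemt WT mice on HFHS chow (4 arrays, weeks 1 to 4) was analysed. The values deposited by the authors are intensity per probe set on a linear scale, scaled to a trimmed mean of 500.0 (2% left out at each end). The submitters' notes name Affymetrix Expression Console, and neither its version nor the summarisation is given in the sources used here. Of 45101 probe sets 64 controls were left out. The annotation table paired 34945 with 1 gene and 932 with several, 9160 were unnamed, and 34741 matched RefSeq GRCm38.p6 by Entrez identifier.

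Values were taken as log2(intensity + 16), which understates changes of dim probe sets. Probe sets with a mean over the 4 arrays above the 40th percentile were kept (27022, for 13024 genes, each read by its brightest probe set). limma 3.58.1 in R 4.3.3 (lmFit, eBayes with trend, two-sided, Benjamini-Hochberg over all kept) fitted week as a number, and weeks 3 and 4 against 1 and 2, on the same 4 arrays. The p-values measure only the spread between these arrays. The scripts were tested on simulated data.

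The members and the 40 gene lists were chosen with earlier results of these data known, and 4 lists (adrenal cortex, chromaffin, brown fat, kidney) were added after the values were seen. Of the list members 877 had a probe set, and 107 were not paired with one in the tables used here and are not analysed. Named genes were those the study followed, the smallest p, the largest ranges, the genes farthest out in each week and list members that complete a pathway. Alternatives were other pseudocounts, filters, scalings, a shared spread with the other 4 arrays and leaving out each array. RefSeq promoter windows were cut to the 250 bases before the start site. Knockout arrays entered only that shared spread.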

Additional observations from a re-analysis of the deposited data

Results flagged for a closer look

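Among the lists and named genes, 16 of 118 had 1 of the 4 arrays set apart by a gap above Dixon's 95% critical value for 4 samples, measured as the gap to the nearest other array over the whole range. Chance flags about 1 in 20, and 701 of 13024 genes kept (5.382%) passed the same limit. Many of the named genes were picked for their range or for standing out in 1 week, and the adrenal, chromaffin and brown fat lists were drawn up after the values were seen and hold members that passed the filter through week 4, so the 16 cannot be read against those shares.

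Week 4 was the high array in most of them. The gap ratio of the list means was 0.929 for adrenal cortex genes, 0.915 for chromaffin genes, 0.852 for brown fat genes, 0.836 for adipocyte markers, 0.876 for lipid droplet and fat storage genes and 0.989 for immediate early genes. For single genes at week 4 it was 0.943 for Hsd3b1 (13.6, 24.1, 14.7 and 6246 at weeks 1 to 4), 0.955 for Cyp11b1 (8.72, 14.2, 10.2 and 2048), 0.925 for Chgb (9.95, 3.38, 1.49 and 3362), 0.921 for Cidea (15.8, 10.7, 8 and 832) and 0.851 for Abcb1b, a multidrug transporter (24.5, 58, 29.8 and 2267). A second, dim probe set of Abcb1b was lowest at week 4. Cltc was set apart by 0.876, with week 4 the highest of 7782, 7743, 7648 and 8796, a small range.

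Week 3 was set apart for the mean of the bile acid list, by 0.891 on the high side, and for Slc30a3, by 0.925 (38.3, 44.8, 231 and 38.5). Week 1 was the high array for the growth hormone and IGF list, by 0.85, and for Cyp2b9, by 0.878 (704, 83.5, 59.6 and 70.8). The cause of these gaps was not tested.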

How the results depend on the processing

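No paired analysis was possible because all 4 arrays are of 1 genotype and each replicate number is a week, so no comparison between groups shares numbers. The count of 0 probe sets called by limma, for the slope and for late against early, held under the pseudocounts 1 and 64, no filter, a filter at the 60th percentile, quantile normalization, median centring, no trend in eBayes, a single probe set per gene and the spread shared with the other 4 arrays. Leaving out 1 array in turn gave 0 to 27 calls for the slope (0 without week 1, 11 without week 2, 27 without week 3, 5 without week 4) and 2 to 33 for late against early (2, 17, 33 and 2), where 3 arrays leave 1 residual degree of freedom and a lone array is assumed to vary like the rest. Dusp1, Phlda1 and Mfsd2a passed for the slope without week 2 and without week 3. Without week 3 the slope calls also included the adrenal and adipocyte genes Hsd3b1, Cyp11b1, Star, Adipoq and Retn. For late against early, that setting leaves the week 4 array alone on the late side. Differences there were 7.505 for Hsd3b1, 7.235 for Chgb, 5.23 for Adipoq, 1.927 for Fgf21 and 1.456 for Gstt2 (log2).

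The 11320 probe sets past 2-fold between weeks 4 and 1 became 2113 above the 40th percentile, 5487 with median centring of log2(intensity + 16) and 5471 as a ratio of intensity + 16. The 423 past 2-fold without overlap became 683 with a pseudocount of 1, 97 with 64, 1830 without a filter and 74 with a filter at the 60th percentile. Among list medians, 771 of the values under other settings moved by less than the spread and 19 moved further, and with 1 array left out 239 and 113. Of the 44 late minus early list medians, 24 changed sign with at least 1 array left out, 7 without week 1, 10 without week 2, 11 without week 3 and 8 without week 4. Of the medians printed above, those that did were hepatocyte (-0.028 without week 1, -0.049 without week 3), urea cycle (-0.017, -0.019) and VLDL (-0.011, -0.0082); fatty acid oxidation (-0.032), ATF4 targets (0.023) and lymphocyte markers (0.021) without week 3; glucose (-0.03), clock (0.044), hormones (0.011) and the genes the study followed (0.051) without week 2; cholangiocyte markers (-0.10 without week 1, -0.091 without week 4), MHC class II (-0.05, -0.10 and -0.012 without weeks 1, 3 and 4) and red blood cell genes (-0.02, -0.11 and -0.021 without weeks 2, 3 and 4). The median of the P450 and conjugation list did so too (-0.014 without week 3). These medians have no settled direction. The number of arrays and low intensity limit the precision of every value.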
